A study of Mus musculus with 4 samples.

Results

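The homing receptors described here are 10 genes of the G protein-coupled receptor family: Cxcr4, Cxcr2, Cxcr3, Ccr1, Ccr2, Ccr7, Ccr9, Cx3cr1, Ccrl2 and S1pr1. All but Ccrl2, which binds the attractant chemerin without signalling itself, read chemokines or sphingosine-1-phosphate. The 10 genes were chosen by symbol for their known ties to holding blood cells in tissue or releasing them. All 10 were found among the 47561 symbols measured. LSK cells were profiled by RNA-seq; they are the marrow fraction that lacks lineage markers and carries Sca-1 and c-Kit, where stem cells and multipotent progenitors lie. All 4 libraries came from C57BL/6 mice aged 12 weeks, 1 mouse per library. The control group was 2 Metrn f/f mice (labelled WT, libraries WT1 and WT2), and the other group was 2 Metrnf/f LysM mice (labelled cKO, libraries cKO1 and cKO2). The floxed Metrn gene was thus shared by both groups. LysM names the lysozyme gene Lyz2, which is expressed in myeloid cells, and in which cells Metrn was deleted was not tested. Whether LysM was 1 or both alleles, and the sex of the mice, are not stated in the labels.

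Chemokine receptors couple mostly to inhibitory G proteins and turn a gradient of ligand into directed movement. In marrow, stromal Cxcl12 acting on Cxcr4 holds stem and progenitor cells and immature neutrophils in place, while Cxcr2 ligands draw mature neutrophils into the blood and Ccr2 lets monocytes leave. S1pr1 senses sphingosine-1-phosphate (S1P), a lipid kept high in blood and lymph, and supports exit of lymphocytes and progenitors from tissue.

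The start regions of 4 receptors are shown because these genes set the range of patterns found below: Cxcr4 had the most transcript, Ccr2 and Cxcr2 were high in the same 2 libraries as Cxcr4, and Ccrl2 was high in 1 alone. Each is 300 bases of RefSeq sequence on GRCm38.p6, from 250 bases before to 50 after the transcript start, printed 5′ to 3′ along the gene. Cxcr4 lies at chr1:128592250-128592549 (minus strand), Cxcr2 at chr1:74153744-74154043 (plus), Ccr2 at chr9:124101933-124102232 (plus) and Ccrl2 at chr9:111057469-111057768 (minus). For Ccrl2 it is 1 of 3 windows listed. Capitals mark matches to the motifs named in the next paragraph.
Cxcr4: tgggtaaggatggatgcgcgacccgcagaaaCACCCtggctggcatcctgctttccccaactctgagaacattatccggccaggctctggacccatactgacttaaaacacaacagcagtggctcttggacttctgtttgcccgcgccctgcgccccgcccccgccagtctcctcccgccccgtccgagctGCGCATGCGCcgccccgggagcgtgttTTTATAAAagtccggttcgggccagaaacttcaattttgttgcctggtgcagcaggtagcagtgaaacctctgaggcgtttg
Cxcr2: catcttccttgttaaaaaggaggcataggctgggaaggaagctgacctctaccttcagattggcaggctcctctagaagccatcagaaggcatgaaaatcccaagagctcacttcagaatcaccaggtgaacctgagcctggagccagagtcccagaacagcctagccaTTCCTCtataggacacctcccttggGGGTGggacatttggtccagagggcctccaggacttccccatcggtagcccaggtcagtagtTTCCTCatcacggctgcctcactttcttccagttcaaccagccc
Ccr2: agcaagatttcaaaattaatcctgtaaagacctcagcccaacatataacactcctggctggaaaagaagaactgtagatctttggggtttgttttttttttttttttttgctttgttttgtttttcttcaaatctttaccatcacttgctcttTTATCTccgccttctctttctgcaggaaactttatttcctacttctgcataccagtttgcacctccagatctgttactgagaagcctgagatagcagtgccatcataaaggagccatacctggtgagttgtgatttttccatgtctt
Ccrl2: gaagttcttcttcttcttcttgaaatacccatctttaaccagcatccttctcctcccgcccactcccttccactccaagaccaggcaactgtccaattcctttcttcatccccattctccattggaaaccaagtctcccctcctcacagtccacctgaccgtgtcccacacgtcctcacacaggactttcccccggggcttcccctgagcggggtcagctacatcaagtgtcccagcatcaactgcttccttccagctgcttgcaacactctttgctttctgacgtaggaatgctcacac

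Of the 10 receptors, 8 had a window in the RefSeq table, and Ccr7 and S1pr1 were not looked for elsewhere. The Cxcr4 window was CpG-rich, with 20 CpG pairs against a median of 7 over 32851 windows. Cxcr2 held 2, Ccr1 and Ccr2 held 1 each, and Ccrl2 held 6. Motifs were searched on both strands by their letters. CACCC, read by Krüppel-like factors, was in 4 of the 8 windows (Cxcr4, Cxcr2, Ccr9 and Cx3cr1) and in 57.5% of all windows. GAGGAA, a core bound by the myeloid factor PU.1, was in 3 (Cxcr2, Cxcr3 and Ccr1) against 28.3% of all windows. TGTGGT, the RUNX core, was also in 3 (Cxcr3, Ccr1 and Cx3cr1) against 16.8%, and AGATAA, the GATA core, was in 1 (Ccr2) against 11.2%. None of the 8 held TTGCNNAA (C/EBP, 10.8% of all windows), TGACTCA or TGAGTCA (AP-1, 5.20%) or the NF-kB motif searched (1.63%). GCGCATG, part of the site bound by the respiratory factor NRF1, and TATAAA, the TATA box core, were chosen after the Cxcr4 sequence was seen. The first was in 3.91% of all windows and the second in 13.6%, and of the 8 receptors only Cxcr4 held either. These matches describe letters and are not evidence of binding.

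The 4 libraries did not group by genotype in the markers of other cells. Values are FPKM, fragments scaled by transcript length and library size, and read depth is unknown. The FPKM values summed to 392717 in WT1, 671802 in WT2, 562401 in cKO1 and 412955 in cKO2. WT2 and cKO1 stood apart from WT1 and cKO2. In those 2 libraries 11 of 12 neutrophil markers were at least 1.5-fold higher than in the other mouse of the same genotype. The same held for 11 of 12 B and plasma cell markers, 8 of 11 tested monocyte, 8 of 11 macrophage, 8 of 10 T and NK cell and 7 of 12 dendritic cell markers. It held for 6 of 12 erythroid, 5 of 9 basophil, eosinophil and mast cell, 2 of 9 megakaryocyte, 1 of 6 early lymphoid and 0 of 4 endothelial and stromal markers, where 10.2% of all tested genes were higher in this way. Summed erythroid markers ran from 2111 to 19507 FPKM in WT and from 1780 to 15531 in cKO. Of 11 tested LSK markers, 0 were higher in this way and 6 were lower, where 25.8% of all tested genes were lower in this way. Metrn, the targeted gene, had 29.3 FPKM in WT1, 66.3 in WT2, 42.3 in cKO1 and 36.7 in cKO2, so its groups overlapped and its level did not separate the labels (log2 difference -0.16, SE 0.49). Which part of Metrn is floxed is not stated, and the values cover the whole gene. Lyz2 had 290 FPKM in WT1, 2406 in WT2, 2904 in cKO1 and 245 in cKO2. Kit, which encodes the sorted c-Kit, had 108 FPKM in WT1, 24.8 in WT2, 25.9 in cKO1 and 116 in cKO2. Ly6a, which encodes Sca-1, the other sorted protein, had 37.2, 83.2, 48.4 and 38.2 FPKM and was thus higher in WT2 and cKO1 (2.24-fold and 1.27-fold). Cd34 (118 to 312 FPKM) and Flt3 (48.7 to 189), further LSK genes, were present in all 4 libraries. Slamf1, a stem cell marker, was low (0.363 to 1.10 FPKM). The receptor results below are given with and without these libraries.

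Cxcr4, the Cxcl12 receptor that retains stem cells in marrow (GRCm38 chromosome 1, positions 128588199 to 128592293), was the most abundant of the 10 receptors in every library. It had 53.8 FPKM in WT1, 110.5 in WT2, 142 in cKO1 and 47.3 in cKO2. It was therefore high in 1 mouse of each genotype, and the groups overlapped. It exceeded 88.5% to 96.3% of the 13148 tested genes, depending on the library. The group means were 82.2 ± 40.1 FPKM in WT and 94.7 ± 67.1 in cKO (SD, n = 2 each). The difference of cKO minus WT was 0.09 on the log2(FPKM + 1) scale (SE 0.64, 95% interval -1.46 to 1.63) and did not pass limma's test (adjusted p = 1.00). In bulk RNA, fewer cells of a type and less RNA per cell cannot be told apart, so these levels do not say which cells held the transcript.

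**Figure D1:**
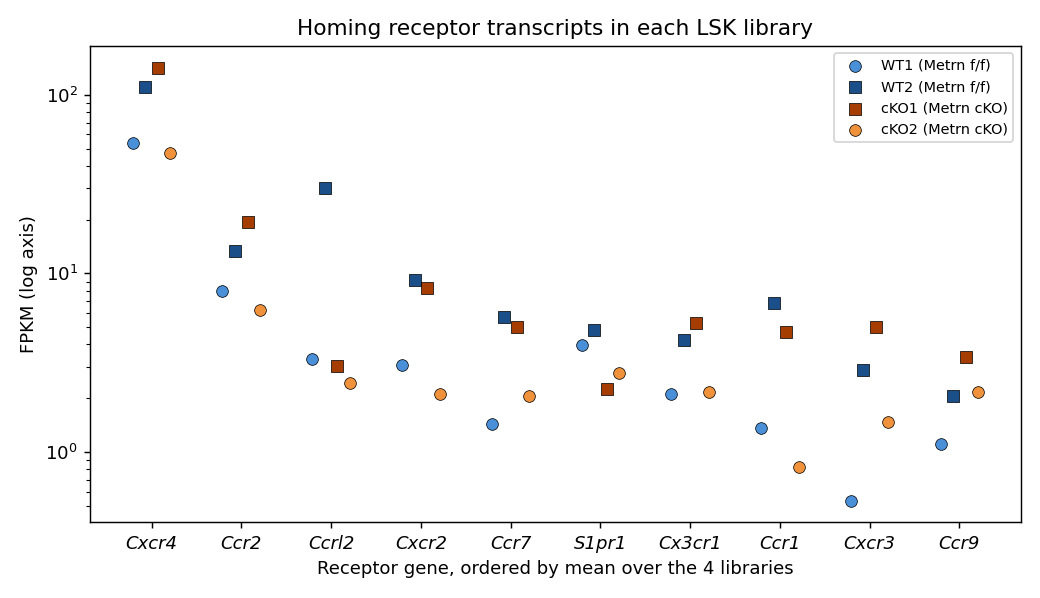
FPKM (log axis) of each receptor in each of the 4 libraries, 1 point per mouse, with genes ordered by their mean. Cxcr4 spans 47.3 to 142 FPKM, above every value of Ccr2, and squares (WT2 and cKO1) lie above circles for all receptors but S1pr1, Ccrl2 and Ccr9.

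The other receptors were far lower. By mean over the 4 libraries the order after Cxcr4 was Ccr2 (11.7 FPKM), Ccrl2 (9.72), Cxcr2 (5.66), Ccr7 (3.54), S1pr1 (3.46), Cx3cr1 (3.45), Ccr1 (3.42), Cxcr3 (2.48) and Ccr9 (2.18). Only the step from Cxcr4 to Ccr2 separated neighbours whose ranges did not overlap. Every later neighbour overlapped the next. Cxcr3 and Ccr1 each had a library below 1 FPKM, where few fragments lie behind a value. All 10 receptors passed the filter of 1 FPKM in at least 2 libraries.

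The myeloid cell receptors Ccr2, Cxcr2, Ccr1 and Cx3cr1 were high in the same 2 libraries as Cxcr4, unlike Ccrl2, which is described below. Ccr2, the Ccl2 receptor by which monocytes leave marrow (chromosome 9, positions 124101950 to 124113557), had 8.02 FPKM in WT1, 13.3 in WT2, 19.3 in cKO1 and 6.22 in cKO2. Cxcr2, the neutrophil receptor for Cxcl1 and Cxcl2 (chromosome 1, positions 74153989 to 74161246), stood at 3.08, 9.18, 8.26 and 2.12 FPKM, with libraries ordered as before. Both were lowest in cKO2 and their groups overlapped. Ccr1 (chromosome 9, positions 123962124 to 123968692), a myeloid receptor for Ccl3 and Ccl5, had 1.36, 6.80, 4.71 and 0.823 FPKM. Cx3cr1, the fractalkine receptor of monocytes and macrophages (chromosome 9, positions 119901616 to 120069879), had 2.12, 4.21, 5.29 and 2.17 FPKM. For each of these the difference between mice of 1 genotype was larger than that between the genotype means. Log2 differences of cKO minus WT were 0.09 (SE 0.63) for Ccr2, -0.26 (SE 0.76) for Cxcr2, -0.41 (SE 0.84) for Ccr1 and 0.15 (SE 0.62) for Cx3cr1, none past the test.

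The lymphoid and dendritic cell receptors were low, and Ccr7 and Cxcr3 were highest in WT2 and cKO1. Ccr7, which guides lymphocytes and dendritic cells towards Ccl19 and Ccl21 in lymph nodes (chromosome 11, positions 99144196 to 99155077), had 1.43 FPKM in WT1, 5.69 in WT2, 4.98 in cKO1 and 2.07 in cKO2. Cxcr3, the receptor for interferon-induced chemokines on T and NK cells (chromosome X, positions 101731535 to 101734269), had 0.534, 2.89, 5.03 and 1.47 FPKM. The groups overlapped for both. Ccr9, the Ccl25 receptor of thymus-seeding progenitors and plasmacytoid dendritic cells (chromosome 9, positions 123678439 to 123784330), had 1.11, 2.06, 3.39 and 2.15 FPKM. Both cKO values of Ccr9 lay above both WT values, by a gap of 2.06 against 2.15 FPKM. Ccr9 was the only receptor of the 10 in that position, where 6.31% of all tested genes were. Its log2 difference was 0.55 (SE 0.55, 95% interval -0.77 to 1.86), which did not pass. Its groups overlapped after quantile normalization. Exons of Ccr9 overlap those of Slc6a20a in GENCODE, and the strand setting of the counting is unknown here, so its low values are uncertain. Cx3cr1 shares exon sequence in the same way with Gm33858.

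Early lymphoid genes were higher in the library with the most Ccr9. Rag2, a recombinase gene, had 1.76 and 1.71 FPKM in WT1 and WT2 and 7.48 and 2.69 in cKO1 and cKO2. Dntt, the terminal transferase gene, had 168, 189, 388 and 232 FPKM. Siglech, a marker of plasmacytoid dendritic cells, had 0.92, 8.8, 12.4 and 0.07 FPKM. Of 6 early lymphoid markers 3 lay above in both cKO libraries (6.31% of all genes) and 0 below (5.73%), and their sum was 184 and 263 FPKM in WT and 540 and 249 in cKO. Summed dendritic cell markers were 320 and 980 FPKM in WT and 757 and 367 in cKO. Most of that sum was Flt3, Bst2 and H2-Aa. Flt3, also an LSK gene, had 153 FPKM in WT1, 48.7 in WT2, 78.3 in cKO1 and 189 in cKO2. The part of early lymphoid and dendritic cells in the Ccr9 level was not tested.

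Taking both within-genotype pairs together, 8 of the 10 receptors were at least 1.5-fold higher in WT2 than in WT1 and in cKO1 than in cKO2. Over all tested genes this held for 10.2%. The 8 were Cxcr4, Cxcr2, Cxcr3, Ccr1, Ccr2, Ccr7, Ccr9 and Cx3cr1. Cxcr4 was 2.05-fold higher in the first pair and 3.01-fold in the second, and Cxcr2 was 2.98-fold and 3.89-fold higher. The neutrophil gene S100a8 was 13.2-fold and 32.4-fold higher over the same pairs, and the summed neutrophil markers ran from 2684 to 32770 FPKM in WT and from 2117 to 58766 in cKO. The summed monocyte markers ran from 816 to 3682 and from 707 to 4165 FPKM, and those of T and NK cells from 169 to 292 and from 169 to 218. Most of the T and NK cell sum was Nkg7, at 149 FPKM in WT1, 248 in WT2, 170 in cKO1 and 144 in cKO2. Cd3e, a defining T cell marker, was listed at 0 in cKO2. The part of any of these cells in the receptor levels was not tested. The count of 8 fell to 4 (Cxcr2, Cxcr3, Ccr1 and Ccr7) when each library was rescaled to the same total, against 4.92% of all genes. That rescaling moved the median log2 difference of all genes from -0.23 to -0.95 in the WT pair and from -0.24 to -0.68 in the cKO pair. Cxcr4 was then 1.20-fold higher in the WT pair and 2.21-fold in the cKO pair. After quantile normalization the count was again 8, with Ccrl2 in place of Cxcr4 (1.42-fold and 2.74-fold).

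**Figure D2:**
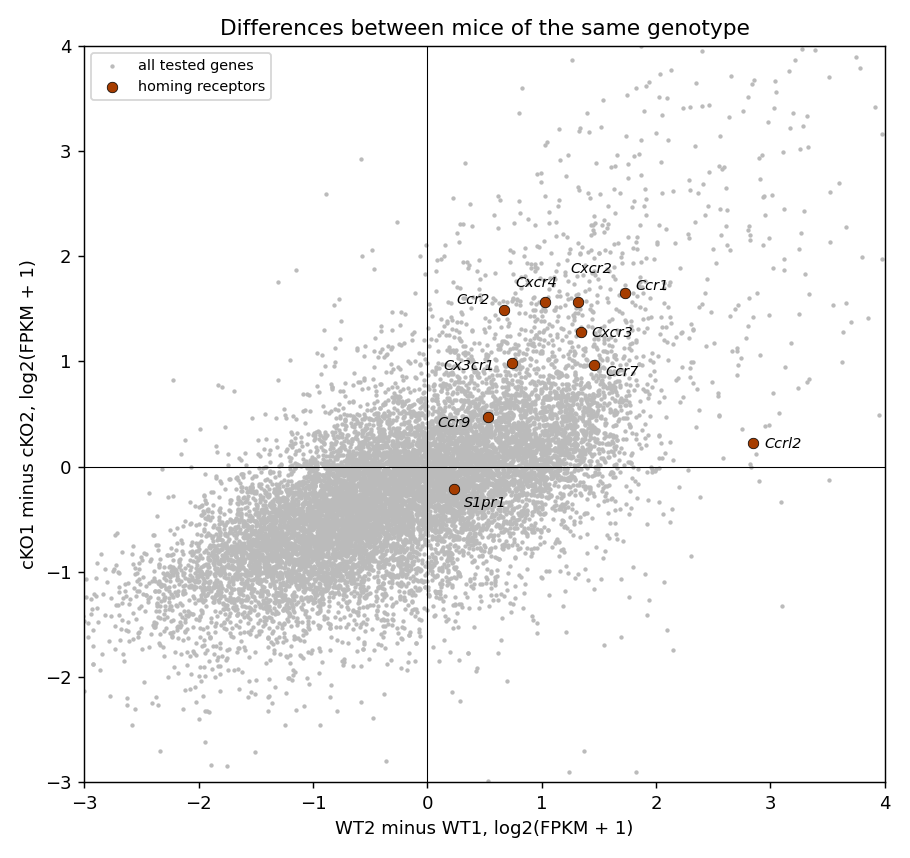
Difference between the 2 WT mice (x axis) and between the 2 cKO mice (y axis) on the log2(FPKM + 1) scale, for all tested genes (grey) and the receptors (brown), with 150 genes outside the axes. The receptors other than Ccrl2 and S1pr1 lie at the upper right, Ccrl2 lies near 0 on the y axis, and S1pr1 lies near the origin.

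**Figure D3:**
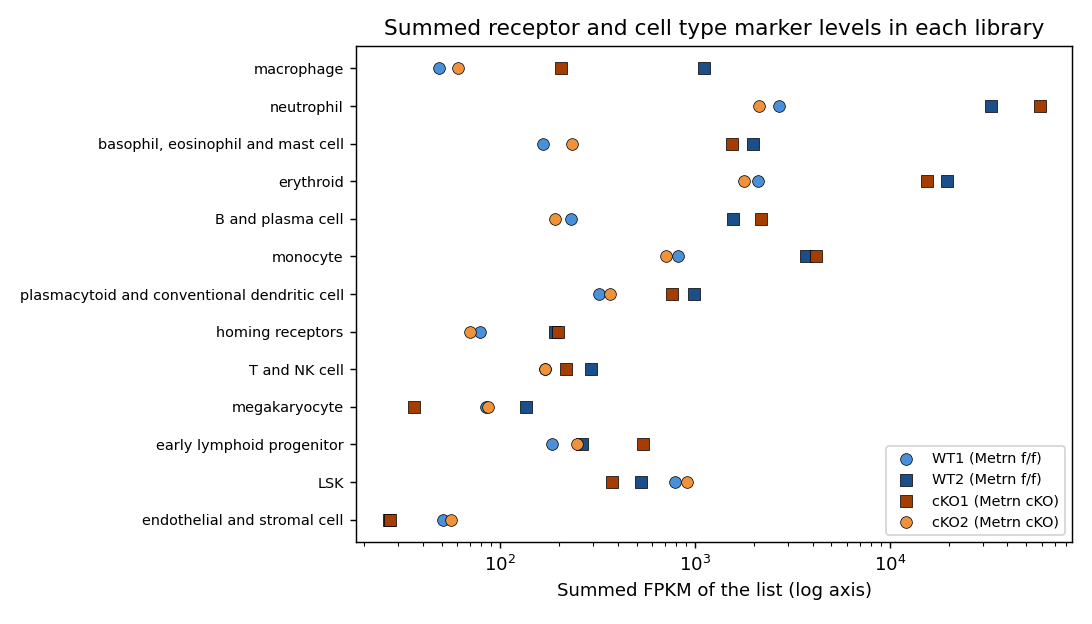
Summed FPKM (log axis) of the receptors and of 12 marker lists in each library, 1 point per mouse. The receptor sum is 69.5 to 78.8 FPKM in the libraries drawn as circles and 190 to 198 in those drawn as squares, and the LSK marker sum runs the other way.

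In WT1 and cKO2, the libraries with the lower sums of neutrophil, monocyte and macrophage markers, the values lay closer together than those of the mice within each genotype for Cxcr4, Ccr2, Cx3cr1, Cxcr2, Ccr7, Ccr1 and Cxcr3, and not for Ccr9, Ccrl2 and S1pr1. Cxcr4 was 0.878-fold, Ccr2 0.776-fold and Cx3cr1 1.02-fold in cKO2 relative to WT1. Cxcr2 was 0.689-fold and Ccr7 1.44-fold in the same pair, and Ccrl2 was 0.734-fold and S1pr1 0.693-fold. At least 1.5-fold higher in cKO2 were 2 receptors, Cxcr3 (0.534 against 1.47 FPKM) and Ccr9 (1.11 against 2.15), where 7.11% of all tested genes were that much higher. At least 1.5-fold lower was 1 receptor, Ccr1 (1.36 against 0.823 FPKM), where 5.35% of all genes were. With 1 mouse per genotype these values have no replicate check.

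Ccrl2 had a pattern of its own. Ccrl2 binds the attractant chemerin and presents it to other cells without signalling itself, and activated macrophages and neutrophils express it. The gene (chromosome 9, positions 111054486 to 111057519) had 3.31 FPKM in WT1, 30.1 in WT2, 3.02 in cKO1 and 2.43 in cKO2. WT2 was thus high alone, at 9.09-fold the level of WT1, while the other 3 libraries lay within 2.43 to 3.31 FPKM. Both cKO values were below both WT values, as in 5.73% of all tested genes, but after quantile normalization the groups overlapped. The log2 difference was -1.64 (SE 0.93, 95% interval -3.89 to 0.61), with adjusted p = 1.00 by limma, and without WT2 it was -0.21. A block that matched WT1 to cKO2 and WT2 to cKO1 was chosen after seeing the data, and the labels do not give it. With that block Ccrl2 had adjusted p = 0.0144 by limma, and over all genes 37 were called higher and 65 lower. The differences within these pairs were -0.33 (cKO2 minus WT1) and -2.95 (cKO1 minus WT2). As the pairing came from the same values, this p-value is no support for a difference in Ccrl2. The macrophage complement gene C1qb was also highest in WT2, at 297 FPKM against 8.01, 48.4 and 8.54 in WT1, cKO1 and cKO2. Summed macrophage markers ran from 48.3 to 1103 FPKM in WT and from 60.6 to 204 in cKO, with none of the 12 at 0 in any library. Their part in the Ccrl2 level was not tested.

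S1pr1 was the receptor whose groups stayed apart under every scaling tried. It had 3.98 FPKM in WT1, 4.85 in WT2, 2.25 in cKO1 and 2.76 in cKO2 (chromosome 3, positions 115710433 to 115715072). Both cKO values were below both WT values, and the mice of 1 genotype were close to each other. The means were 4.42 ± 0.609 FPKM in WT and 2.51 ± 0.359 in cKO (SD, n = 2 each). The log2 difference was -0.63 (SE 0.52, 95% interval -1.87 to 0.62) and did not pass limma's test (adjusted p = 1.00). With each library left out in turn it stayed between -0.74 and -0.51, and in the pair of WT1 and cKO2 it was -0.41. Its sign could not turn in these settings, because the groups did not overlap. An exact permutation test of S1pr1 over the 4 libraries gave p = 0.333 (2-sided), the smallest that 2 against 2 allows. Any gene whose groups do not overlap gets that p from this test. As 5.73% of all tested genes also had both cKO values below both WT values, the position of S1pr1 is shared with many genes.

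**Figure D4:**
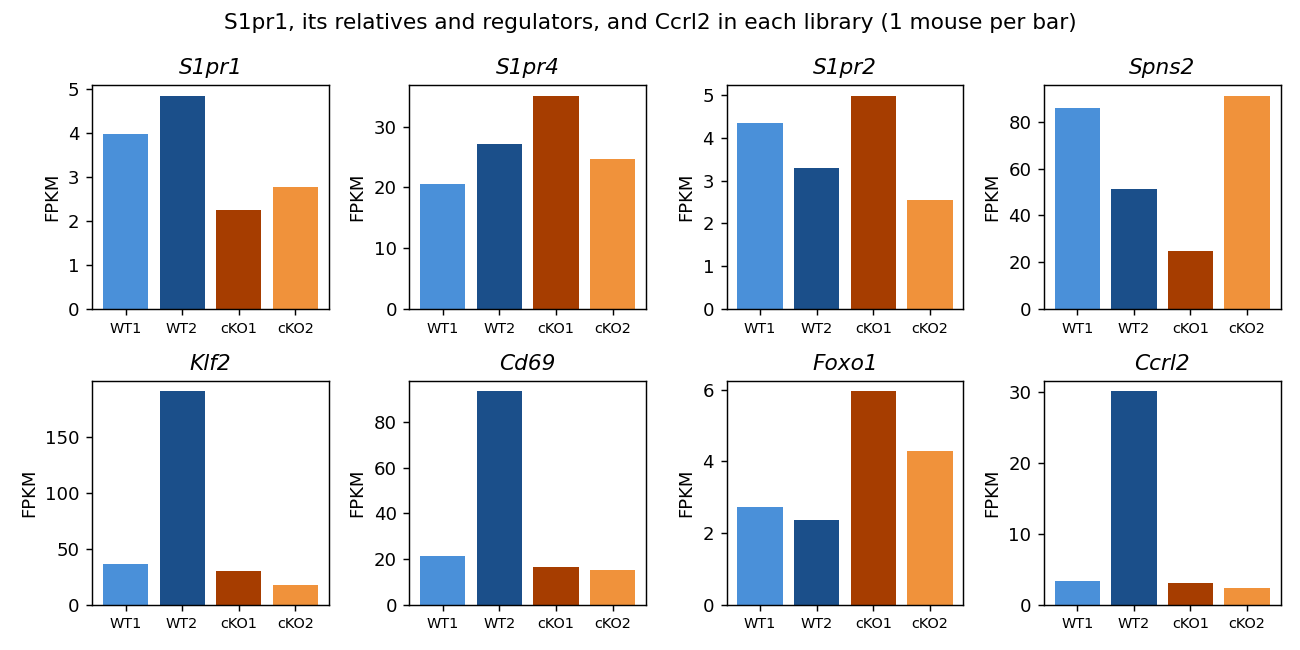
FPKM of S1pr1, of other S1P genes, of genes that regulate S1pr1, and of Ccrl2 in each library, 1 bar per mouse, each axis starting at 0. S1pr1, Klf2, Cd69 and Ccrl2 are lower in both cKO mice, Foxo1 is higher in both, and Klf2, Cd69 and Ccrl2 are high in WT2 alone.

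Genes that act on S1pr1 were compared next. Klf2, a transcription factor that drives S1pr1 in lymphocytes, had 36.2 FPKM in WT1, 190 in WT2, 30.3 in cKO1 and 17.7 in cKO2. Cd69, whose protein binds S1pr1 and removes it from the surface, had 21.3, 93.5, 16.7 and 15.2 FPKM. Foxo1, a transcription factor upstream of Klf2 and Ccr7 in lymphocytes, had 2.74, 2.37, 5.95 and 4.27 FPKM. Klf2 and Cd69 were lower and Foxo1 higher in both cKO mice. Log2 differences were -1.80 (SE 0.78) for Klf2, -1.44 (SE 0.69) for Cd69 and 0.77 (SE 0.52) for Foxo1, and none of these passed. Of the 8 regulators fixed for comparison, 0 passed in either direction, 2 lay above (Foxo1 and Dpp4, the protease that cuts Cxcl12) and 2 below, beside 6.31% and 5.73% of all genes. Immediate early genes, which handling or stimulation induces, lay below in both cKO libraries in 15 of 20 tested members (5.73% of all genes), with 0 past the test and a median log2 difference of -1.48 against 0.07 for all genes. Their part in the Klf2, Cd69 and S1pr1 levels was not tested.

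The other genes of the S1P system were compared as a list. Of 12 genes 10 were tested, 0 passed in either direction, and 0 had groups that did not overlap (6.31% of all genes lay above and 5.73% below), with a median log2 difference of -0.0012 against 0.07 for all genes. S1pr4, a receptor of blood cells, was the most abundant S1P receptor, at 20.6 FPKM in WT1, 27.1 in WT2, 35.1 in cKO1 and 24.6 in cKO2. It exceeded S1pr1 in all 4 libraries. S1pr2 had 4.33, 3.29, 4.98 and 2.55 FPKM. Spns2, an S1P exporter, had 85.9, 51.3, 24.9 and 91.1 FPKM and thus ran with Kit rather than with the chemokine receptors. The S1P lyase gene Sgpl1, which destroys S1P, had 11.9 to 16.2 FPKM, and the phosphatase gene Sgpp1 had 13.7 to 17.2. Some members had log2 differences near that of S1pr1, also not past the test: the S1P kinase gene Sphk1 (-0.74, SE 0.75), the S1P exporter gene Mfsd2b (-0.55, SE 0.63) and Spns2 (-0.47, SE 0.66). Sphk1 had 1.30, 7.79, 1.42 and 2.00 FPKM, high in WT2 alone.

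Further chemokine receptors were compared, and those named here were scarce. Ccr3, an eosinophil receptor, had 5.76 FPKM in WT2 and at most 0.842 elsewhere. Ackr1 had 3.30 FPKM in WT2 and at most 0.277 elsewhere, and none of the 6 atypical receptors reached the filter. Ackr3, the atypical Cxcl12 receptor, was listed at 0 in 3 libraries. Ccr9, Cxcr6, Xcr1, Ccr1, Ccr3 and Ccr2 lie in that order along chromosome 9, and of these 6 receptors Ccr2 had the highest level in every library. Fyco1, which lies in the same stretch and encodes a vesicle transport adaptor, had 7.14, 0.806, 3.53 and 7.48 FPKM, highest in WT1 and cKO2, where Ccr1 and Ccr2 were lowest.

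Ligands of the 10 receptors were compared by a list of 24 genes. Of 11 tested, 0 passed, 0 lay above and 5 lay below in both cKO libraries (Cxcl12, Cxcl2, Ccl3, Ccl4 and Ccl25), beside 6.31% above and 5.73% below over all genes, with a median log2 difference of -0.65 against 0.07 for all genes. Mif was the most abundant of the 24 in every library, and its groups overlapped. It had 278 FPKM in WT1, 670 in WT2, 306 in cKO1 and 285 in cKO2. Cxcl2, a Cxcr2 ligand, had 4.98 FPKM in WT1, 109 in WT2, 2.61 in cKO1 and 2.24 in cKO2. Ccl3, a Ccr1 ligand, had 59.8, 255, 22.6 and 49.4 FPKM. Cxcl12, made by marrow stroma, had 1.00, 3.06, 0.443 and 0.299 FPKM, and the stromal marker Lepr was listed at 0 in 3 libraries. Not all endothelial and stromal markers were that low: of 10, 4 reached the filter. These were Cxcl12, Pecam1 (13.8 to 31.2 FPKM), Emcn (3.40 to 9.46) and Pdgfrb (2.84 to 14.7). Cxcl2, Ccl3 and Cxcl12 were highest in WT2, the library in which Ccrl2 was high.

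Signalling genes that receptors share ranged widely in level, from Gnai1 (0.015 to 0.203 FPKM, not tested) and Grk5 (1.08 to 2.15) to Gnai2. Of 27 tested G protein, arrestin, receptor kinase and effector genes 0 passed, 5 lay above (Gnb1, Grk2, Grk5, Vav1 and Was) and 0 below, beside 6.31% and 5.73% of all genes. Gnai2, the main inhibitory G protein subunit of blood cells, had 280 FPKM in WT1, 287 in WT2, 387 in cKO1 and 286 in cKO2. Grk2, a kinase that shuts off Cxcr4, had 135, 97.4, 169 and 140 FPKM. Rac2, a small GTPase of blood cell migration, had 135, 242, 291 and 137 FPKM, and was high in WT2 and cKO1 as Cxcr4 was. Among 16 tested adhesion and retention genes 0 passed, with 1, the integrin gene Itgb7, above (19.5 and 19.7 FPKM in WT against 26.8 and 22.9 in cKO) and 0 below, a share near the 6.31% of all genes. Itgb2, the leukocyte integrin chain, had 29.5, 66.2, 156 and 27.2 FPKM.

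The genes nearest to each receptor in pattern were found by the root mean square difference of centred log2(FPKM + 1) over the 4 libraries, among genes with a mean of at least 4 FPKM. Nearest to Cxcr4 were Dok3 (0.04), Tmem216 (0.05) and Tnfsf13 (0.05). Dok3, an adaptor of myeloid and B cells, had 30.8, 68.5, 81.8 and 27.9 FPKM. Nearest to Ccr2 were Cldn15, Dgat1 and Mgl2 (0.04 to 0.06), and nearest to Cxcr2 were Mxd3, Tmem243 and the Fc receptor gene Fcgr3 (0.06 to 0.07). Nearest to Ccrl2 were Prxl2b (0.19), the red cell water channel gene Aqp1 (0.21) and the platelet chemokine gene Pf4 (0.24). Prxl2b had 3.28, 32.1, 4.57 and 3.26 FPKM and was thus also high in WT2 alone. The distance is not scaled to the size of a gene's swings, so distances of different receptors do not compare directly. S1pr1 was nearest to Ggct (0.03), Tmem42 (0.04) and Idnk (0.05). With 4 libraries such likeness is a description only.

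**Figure D5:**
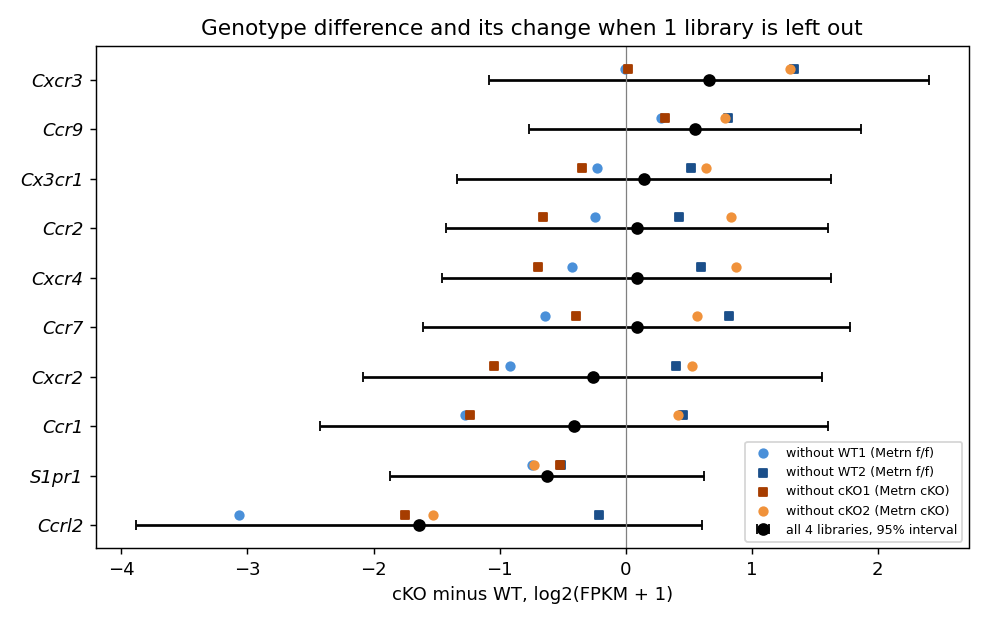
cKO minus WT on the log2(FPKM + 1) scale for each receptor (black point, 95% interval by limma) and the same difference with 1 library left out (coloured points). Every interval crosses 0, the coloured points of Cxcr4 run from -0.70 to 0.87, and those of S1pr1 stay between -0.74 and -0.51.

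Over all 10 receptors, 0 passed limma's test at an adjusted p of 0.05, as did 0% of all 13148 genes, and 0 had an unadjusted p under 0.05, against 0.297% of all genes. The unadjusted p ran from 0.126 for Ccrl2 to 0.906 for Ccr7. The median log2 difference of the receptors was 0.09 beside 0.07 for all genes. The smallest SE was that of S1pr1 (0.52), with an interval of -1.87 to 0.62, and the largest difference, -1.64 for Ccrl2, did not pass either. The sign turned in 7 of the 10 receptors when 1 library was left out: Cxcr4, Cxcr2, Cxcr3, Ccr1, Ccr2, Ccr7 and Cx3cr1. Cxcr4 went to -0.42 without WT1 and -0.70 without cKO1, and to 0.60 without WT2 and 0.87 without cKO2.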

How the data were processed

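Per the labels' protocols, LSK cells were sorted from 4 mice and total RNA was extracted with TRIZOL for Illumina libraries. The authors deposited 1 table per library, whose values were taken as FPKM because they have decimals, are never negative and sum to different totals. The file headers give only the library name. The submitters' processing notes name mm10, HISAT2 (2.1), featureCounts (1.6.4) and cutadapt (1.16.5), among other tools, without their roles. The annotation is not given in the sources used here. Depth is unknown, so counting error could not be given.

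The 13148 genes that reached 1 FPKM in 2 or more libraries were fitted as log2(FPKM + 1) by limma 3.58.1 with an intensity trend (R 4.3.3). Tests were 2-sided and p-values were adjusted by Benjamini-Hochberg over all 13148 genes. Fold changes on this scale understate the change of low genes. Same-numbered replicates were not paired: the deviations of WT1 and cKO1 from their group means had a correlation of -0.708 over genes. Gene positions are from GENCODE M21 (GRCm38, the build called mm10), promoter windows from RefSeq. Receptors, lists, motifs and thresholds were chosen with earlier results of these data known. Named genes are the 10 receptors, the most abundant and the non-overlapping genes of each list, and the 3 genes nearest to each receptor in pattern; Fyco1, Siglech, Cd3e, Lepr, S1pr2, Ackr3, Slamf1, Ly6a, Sphk1, Mfsd2b, Gnai1 and the S100a8 comparison were picked with their values known. The scaling, pseudocount, filter, trend, replicate block and leave-one-out alternatives are given in the closing section. No protein sequences were used here.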

Additional observations from a re-analysis of the deposited data

How the results depend on the processing

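With 4 libraries, depth unknown and no scaling reference, the receptor results are limited by the spread between mice. Under the other planned settings with all 4 libraries, 69 of 70 receptor differences kept their sign and their side of the threshold. Dropping the filter, dropping the intensity trend or adding the replicate block leaves each difference unchanged, so the signs could not turn there. The exception was Ccr7, at -0.0364 after quantile normalization. No receptor passed under any planned setting, and the lowest adjusted p was 0.567 by limma. With the replicate number as a block (replicate block), 0 receptors passed, and over all genes 3 were called higher and 1 lower. With the crossed pairing as a block, chosen after seeing the data, 1 receptor passed (Ccrl2, adjusted p = 0.0144 by limma), and over all genes 37 were called higher and 65 lower. As that pairing came from the same values, these calls are no support for a difference.

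Leaving out each library in turn, differences ran from -0.70 to 0.87 for Cxcr4, -1.05 to 0.52 for Cxcr2, -0.00889 to 1.33 for Cxcr3, -1.27 to 0.45 for Ccr1, -0.65 to 0.84 for Ccr2, -0.64 to 0.82 for Ccr7 and -0.35 to 0.64 for Cx3cr1, with signs turning in 13 of 40 values. Ccr9, Ccrl2 and S1pr1 kept their sign, which could not turn because their groups did not overlap. Receptors above in the Metrn cKO libraries then numbered 1 to 5 and those below 2 to 6, and over all genes 0 to 32 were called higher and 0 to 5 lower. After quantile normalization the receptors above numbered 0 and those below 1. Between WT1 and cKO2 alone, 4 were higher and 6 lower, where every receptor has to fall on 1 side. The share of all genes on each side is not given for that pair, for the leave-one-out fits or for quantile normalization. With 1 library left out, groups stay apart by chance more often than with all 4. The 6.31% and 5.73% of all genes over 4 libraries are therefore no measure of the leave-one-out counts. In the pair of WT1 and cKO2, Cxcr4 was at -0.18 and Ccr2 at -0.32, both of reversed sign, Ccrl2 at -0.33 and S1pr1 at -0.41. The count of 8 receptors high in both WT2 and cKO1 became 4 after rescaling to TPM. The cause of these changes was not tested.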
